A study of Mus musculus with 6 samples.

Results

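*Nppa*, *Nppb*, *Acta1*, *Ankrd1*, *Xirp1*, *Rcan1* and *Fhl1* are genes whose transcripts are known to accumulate in the heart muscle cell under mechanical load or in hypertrophy. They were taken by gene symbol from a table of 21776 genes, and all 7 were found and passed the filter on low values (a mean of at least 10 over the 6 libraries). Total RNA of mouse hearts was sequenced with strand information, from 3 hearts homozygous for a *Trdn-as* loss-of-function allele (KO) and 3 wild-type hearts (WT), with 1 library per heart. *Trdn-as*, a non-coding RNA, is read from the strand opposite to *Trdn*, which encodes triadin, a protein of the calcium release complex of the sarcoplasmic reticulum. In the KO allele a polyadenylation signal was knocked into the first exon of *Trdn-as* with Cas9 in embryonic stem cells, and the resulting mice were backcrossed to C57BL/6. The allele is carried by every cell of the animal and is not restricted to cardiomyocytes. The number of stem cell clones behind the line and the age and sex of the sequenced animals are not given in the sources used here. The comparison addressed whether the genes of the load response differ in level between hearts without and with *Trdn-as* transcription.

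A heart under raised pressure or volume load stretches its muscle cells, and the cells answer by re-activating genes of the fetal heart, by secreting natriuretic peptides and by reinforcing the Z-disc, the structure that anchors actin filaments and titin. Calcium is a messenger in this response, since calcineurin, a phosphatase switched on by calcium and calmodulin, releases NFAT factors into the nucleus, while serum response factor and TEAD factors act at promoters of sarcomere genes. *Nppa* and *Nppb* encode the natriuretic peptides ANP and BNP, *Acta1* the skeletal isoform of alpha-actin, *Ankrd1* and *Xirp1* proteins of the titin spring and of the intercalated disc, *Rcan1* a calcineurin inhibitor that is itself a calcineurin target, and *Fhl1* a LIM domain protein bound to titin.

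The values are read counts divided by a size factor per library and rounded, called normalised read counts below. The libraries held an estimated 3.15 to 3.62 M counted reads in KO and 2.59 to 3.46 M in WT, with WT replicate 1 the shallowest. *Trdn-as*, listed as AC157017.2, stood at 1, 0 and 1 in KO against 690, 773 and 688 in WT, and *Trdn* at 2489, 2381 and 2551 against 1541, 1541 and 1516, so both followed the labels. Muscle transcripts of the heart were abundant in every library. The 10 cardiomyocyte markers summed to between 98196 and 125141, while *Myh2*, *Actn3*, *Tnnt3*, *Tnni2* and *Mylpf* of fast skeletal muscle stayed between 0 and 10. As these are bulk samples of heart, fewer cells of a type and less RNA per cell cannot be told apart. The p-values set a difference against the spread between these 6 samples. In the main limma fit the spread of a gene is drawn in part from genes of similar abundance, through a mean-variance trend. That fit had 15.4 prior and 4 residual degrees of freedom.

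None of the 7 genes passed the test between KO and WT (limma on log2(value + 1), two-sided, Benjamini-Hochberg adjusted over 13753 genes), against 4 genes, or 0.0291%, of all genes tested. Limma-voom also called 0 of the 7, and 1 of them, *Acta1*, was called without KO replicate 1 or without WT replicate 2. Over all genes 32 were called without KO replicate 1 and 4 without WT replicate 2. At an unadjusted p under 0.05 in the limma fit of all 6 libraries there were 2 members, *Acta1* and *Nppb*, both lower in KO. All genes reached that level in 5.74% of cases, and in 2.8% with the lower values in KO. *Acta1* was the only member whose KO and WT values did not overlap, a pattern with KO below WT that 4.44% of all genes showed. The fitted difference lay below 0 for 6 members, with *Xirp1* the exception, and the median of the 7 was -0.11 on the log2 scale. Over all genes 49.4% lay below 0 and the median was 0.00. In this fit none of the 7 lay above 0 at an unadjusted p under 0.05, and the highest upper end of a 95% interval was 1.12-fold, for *Xirp1*. This depended on the scaling, as *Xirp1* lay above 0 in limma at 0.11 (unadjusted p = 0.0453) after a correction for read density and at 0.21 (unadjusted p = 0.0359) after scaling to cardiomyocyte markers, with adjusted p-values of 0.873 and 0.487.

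**Figure D1:**
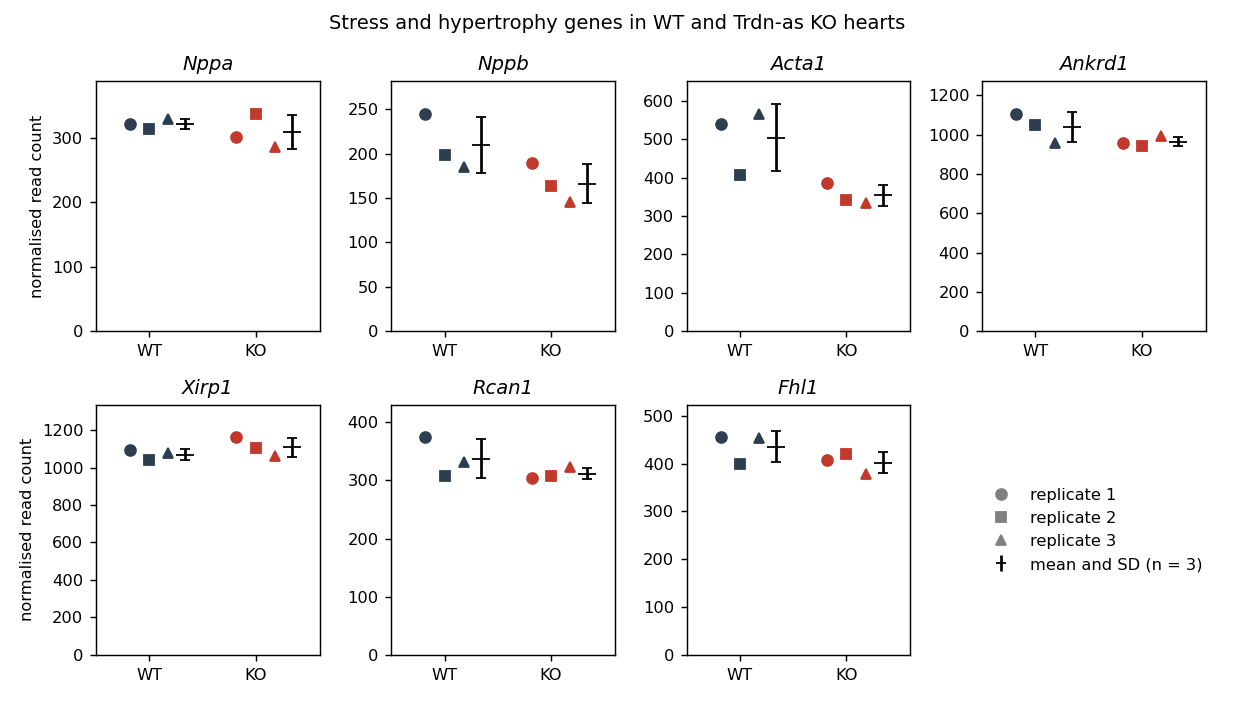
Normalised read count of each gene in the 3 WT and 3 KO libraries, with points for libraries, symbols for replicate numbers, and a bar for the mean with the SD. The KO points of *Acta1* all lie under the WT points, and the points of the other 6 genes overlap between groups.

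The 250 bases upstream of the RefSeq start (GRCm38.p6) are shown for the natriuretic peptide genes, which lie side by side, and for *Acta1* and *Ankrd1*, because these 4 had the most reads per kilobase and differ in the motifs they hold. Capitals mark the CArG box, the site of serum response factor, and the MCAT element CATTCC, the site of TEAD factors, searched on both strands. The sequences are written 5′ to 3′ along each gene's strand. The *Nppb* window reaches into the gene as the table places it, because the RefSeq start lies downstream of the start in the table. The windows are chr4:148000472-148000721 on the plus strand for *Nppa*, chr4:147985650-147985899 on the plus strand for *Nppb*, chr8:123894776-123895025 on the minus strand for *Acta1* and chr19:36119845-36120094 on the minus strand for *Ankrd1*.
Nppa: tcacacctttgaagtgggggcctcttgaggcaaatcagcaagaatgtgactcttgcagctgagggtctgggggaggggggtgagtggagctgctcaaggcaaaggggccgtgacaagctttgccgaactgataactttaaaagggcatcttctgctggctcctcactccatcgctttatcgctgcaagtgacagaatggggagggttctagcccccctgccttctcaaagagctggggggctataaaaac
Nppb: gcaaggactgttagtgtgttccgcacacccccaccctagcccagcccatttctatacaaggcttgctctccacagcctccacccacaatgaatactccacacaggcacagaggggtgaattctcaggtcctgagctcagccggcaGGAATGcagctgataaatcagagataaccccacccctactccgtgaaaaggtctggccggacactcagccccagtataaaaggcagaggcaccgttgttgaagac
Acta1: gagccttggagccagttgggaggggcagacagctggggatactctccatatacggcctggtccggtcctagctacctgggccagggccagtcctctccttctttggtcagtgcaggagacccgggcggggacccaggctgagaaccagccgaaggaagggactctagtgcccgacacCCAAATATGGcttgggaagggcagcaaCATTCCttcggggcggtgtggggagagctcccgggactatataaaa
Ankrd1: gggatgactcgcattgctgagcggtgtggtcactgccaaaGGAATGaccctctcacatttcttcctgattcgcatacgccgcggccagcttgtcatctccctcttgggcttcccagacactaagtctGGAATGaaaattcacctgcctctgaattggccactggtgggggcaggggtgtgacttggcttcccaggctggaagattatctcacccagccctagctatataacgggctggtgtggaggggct

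*Acta1* held a CArG box 73 to 64 bases before the start and an MCAT element at 46 to 41 bases. *Nppb* held 1 MCAT element on the opposite strand, 105 to 100 bases before the start, and *Ankrd1* held 2 on the opposite strand, at 210 to 205 and at 123 to 118 bases. In the *Nppa* window neither set of letters was present. *Fhl1* held a CArG box 102 to 93 bases before 1 of its 2 RefSeq starts. The NFAT core GGAAAA was found, among the windows of these genes, only in *Rcan1*, at 1 of its 2 starts (chr16:92400079-92400328, minus strand), where it had 2 matches, at 228 to 223 and 193 to 188 bases. Among 32536 upstream windows of 250 bases, 1.48% held a CArG box, 12.6% an MCAT element and 20.4% the NFAT core. Of the 7 genes 6 matched a RefSeq window, with *Xirp1* not among them, and the 6 gave 8 windows. The 3 motifs share no position in these windows.

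*Nppa* encodes atrial natriuretic peptide, which the atria make throughout life and the ventricles re-express under load. The gene (ENSMUSG00000041616, chr4:148000722-148002079, plus strand, 3 exons) stood at 301, 337 and 286 in KO and at 321, 314 and 329 in WT. The WT values fell inside the range of the KO values. The means were 308 ± 26.2 (SD, n = 3) and 321 ± 7.51, and the log2 fold change was -0.06 with a standard error of 0.08 (limma, adjusted p = 0.950). The 95% interval of the fold ran from 0.855 to 1.07. Without KO replicate 2 the log2 fold change was -0.13 and without KO replicate 3 -0.01. It turned to 0.03 after the density correction and to 0.09 under scaling to the cardiomyocyte markers. An antisense transcript, Gm13054, covers 532 exonic bases of *Nppa*, and the counting separated the strands. That transcript was near 0, with 1, 2 and 2 in KO and 3, 2 and 5 in WT.

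*Nppb* encodes brain natriuretic peptide, which ventricular muscle releases on stretch and which serves as a blood marker of heart failure. The gene (ENSMUSG00000029019, chr4:147985788-147987205, plus strand) ends 13.5 kb before *Nppa* begins, with 0 other genes of the table between them. It stood at 190, 163 and 146 in KO and at 245, 198 and 185 in WT. All KO values but that of replicate 1 lay under all WT values, and KO replicate 1 was above WT replicate 3. The means were 166 ± 22.2 and 209 ± 31.6 (SD, n = 3), a log2 fold change of -0.33 with a standard error of 0.11 and a fold of 0.797 (95% interval 0.677 to 0.938). In limma the unadjusted p was 0.00888 and the adjusted p 0.772, the rank by p being 157 of 13753. Without WT replicate 1, the highest library, the log2 fold change was -0.21 with an unadjusted limma p of 0.0919, and without KO replicate 3 it was -0.24 with 0.0638. With no mean-variance trend in the fit the unadjusted limma p of *Nppb* over all 6 libraries was 0.0611.

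The share of *Nppb* against *Nppa*, which does not depend on how a library is scaled, was 63.1, 48.4 and 51.0 *Nppb* reads per 100 *Nppa* reads in KO and 76.3, 63.1 and 56.2 in WT. The ranges overlapped, and the means of 54.2 ± 7.86 and 65.2 ± 10.2 (SD, n = 3) gave p = 0.3 in an exact two-sided permutation test, where 0.1 is the smallest p that 3 against 3 allow. Because atrial tissue is rich in *Nppa*, the atrial markers are given beside it. *Myl7*, an atrial myosin light chain, stood at 36, 47 and 28 in KO and 24, 40 and 30 in WT, and *Sln*, the atrial inhibitor of the calcium pump, at 29, 28 and 13 against 11, 16 and 25. *Bmp10* was 0, 8 and 2 in KO and 1, 0 and 56 in WT, so WT replicate 3 stood apart for that gene. *Myl4* was at 159, 208 and 107 in KO and 93, 168 and 182 in WT, and *Gja5* and *Kcnj3* had log2 fold changes of -0.14 and -0.06. Of the 6 atrial markers 3 lay below 0 and 3 above, with a median of 0.02. Most of their reads came from *Kcnj3*, and they summed to between 1016 and 1137 in KO and between 1053 and 1205 in WT. None reached an unadjusted limma p under 0.05, and 1 did when KO replicate 3 was left out. The part of atrial content in the values of *Nppa* and *Nppb* was not tested.

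Around the peptides, 8 genes that process them or carry their signal were tested, of which 6 lay below 0 and 2 above, with a median of -0.05. *Corin*, the protease that activates the ANP precursor, was at 1456, 1494 and 1352 in KO and 1519, 1439 and 1416 in WT. *Npr3*, the receptor that clears natriuretic peptides from the circulation, was the single gene of the list with an unadjusted p under 0.05. It stood at 259, 283 and 249 in KO and at 220, 226 and 247 in WT, every KO value above every WT value, with a log2 fold change of 0.19 (limma, adjusted p = 0.851). The count was 0 when KO replicate 2, WT replicate 1 or WT replicate 2 was left out, and 2 for KO replicate 1. The signalling receptor *Npr1* overlapped between groups, with 137 to 162 in KO and 136 to 168 in WT.

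*Acta1* encodes skeletal alpha-actin, which the fetal heart uses and which the adult heart re-expresses in hypertrophy beside its own *Actc1*. It had the largest difference of the 7 genes. *Acta1* (ENSMUSG00000031972, chr8:123891769-123894751, minus strand) stood at 386, 342 and 334 in KO and at 541, 406 and 567 in WT. All KO hearts were lower than all WT hearts, and WT replicate 2 was the WT heart nearest to them. The means were 354 ± 28.0 and 505 ± 86.4 (SD, n = 3), and the log2 fold change was -0.50 with a standard error of 0.10, which is a fold of 0.708 (95% interval 0.614 to 0.816). The unadjusted limma p of 6.44e-05 ranked 6 among 13753 genes, and its adjusted p of 0.148 missed the threshold of 0.05. With no mean-variance trend in the fit the unadjusted limma p of *Acta1* was 0.0123 and the adjusted p 0.764.

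The call on *Acta1* depended on which libraries entered the limma fit. Without KO replicate 1 the adjusted p was 0.0184 with a log2 fold change of -0.56, and without WT replicate 2 it was 0.00427 with -0.65. Without WT replicate 1 the adjusted p was 0.896 with a log2 fold change of -0.44, and in all 6 such fits the difference stayed below 0, between -0.65 and -0.41. Of the 75-base windows of the *Acta1* transcripts 0.394% are shared with other transcripts. The part of close actin paralogs in its reads was not tested.

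Set against the cardiac isoform of the same library, *Acta1* gave 32.6, 28.0 and 26.1 reads per 100 *Actc1* reads in KO and 33.9, 29.8 and 47.8 in WT. The groups overlapped on this scale, as WT replicate 2 lay under KO replicate 1. *Actc1* itself was at 1184, 1223 and 1278 in KO and at 1594, 1363 and 1186 in WT. These *Actc1* values rose as the estimated reads of a library fell, from 3.62 M in KO replicate 1 to 2.59 M in WT replicate 1. The ratio can therefore differ with library depth as well as with isoform use, and the part of depth in it was not tested. The mean ratios were 28.9 ± 3.33 and 37.2 ± 9.44 (SD, n = 3), a KO to WT quotient of 0.777 (exact two-sided permutation test, p = 0.2). Leaving out 1 library at a time moved that quotient between 0.707 and 0.907, the upper value being without WT replicate 3.

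The other classical isoform switch of the loaded heart is that from *Myh6*, the fast myosin heavy chain, to *Myh7*, the slow one. *Myh7* was at 1043, 359 and 439 in KO and at 990, 556 and 834 in WT, so KO replicate 1 stood far above its group. Its log2 fold change was -0.49 with a standard error of 0.25 (limma, unadjusted p = 0.0613, adjusted p = 0.851). The *Myh7* reads per 100 *Myh6* reads were 20.9, 6.85 and 8.14 in KO and 14.9, 9.58 and 16.3 in WT. *Myh6*, like *Actc1*, rose in value as the estimated reads of a library fell, so this ratio can also differ with depth. The means of 12.0 ± 7.78 and 13.6 ± 3.56 (SD, n = 3) differed by less than the spread (exact two-sided permutation test, p = 0.8, where 0.1 is the smallest possible). The quotient of the means was 0.880, and its direction turned with single libraries, since it was 1.07 when KO replicate 2 and 1.02 when KO replicate 3 was left out, against 0.551 for KO replicate 1. KO replicate 1 was also the highest KO library for *Acta1* and *Nppb*.

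*Ankrd1* encodes CARP, an ankyrin repeat protein that binds the titin spring in the I-band and also acts in the nucleus. The gene (ENSMUSG00000024803, chr19:36111965-36119844, minus strand) stood at 959, 945 and 992 in KO and at 1107, 1051 and 959 in WT. WT replicate 3 equalled KO replicate 1, and the other WT hearts were above all KO hearts. The means were 965 ± 24.1 and 1039 ± 74.7 (SD, n = 3), with a log2 fold change of -0.10 and a standard error of 0.06 (limma, adjusted p = 0.879, 95% interval of the fold 0.852 to 1.02). Without WT replicate 1 the log2 fold change was -0.06 and without WT replicate 3 -0.16. It was -0.01 after the density correction and turned to 0.05 under scaling to the cardiomyocyte markers.

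*Xirp1* encodes Xin, an actin-binding repeat protein of the intercalated disc. The gene (ENSMUSG00000079243, chr9:120013755-120023598, minus strand) stood at 1161, 1103 and 1059 in KO and at 1093, 1039 and 1075 in WT. The groups overlapped and this was the single member with the higher mean in KO. The means were 1108 ± 51.2 and 1069 ± 27.5 (SD, n = 3), with a log2 fold change of 0.05 and a standard error of 0.06 (limma, adjusted p = 0.945, 95% interval of the fold 0.954 to 1.12).

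*Xirp2*, the close relative of *Xirp1* at the Z-disc and intercalated disc, had its fitted difference on the other side of 0. It stood at 6151, 5712 and 5939 in KO and at 7295, 6840 and 6551 in WT, without overlap, and its log2 fold change was -0.22 (limma, unadjusted p = 9.16e-04, adjusted p = 0.518). Of the 15 tested genes of stretch sensing at titin and the Z-disc, 13 lay below 0 and 2 above, with a median of -0.11. Of the 15, 4 reached an unadjusted limma p under 0.05, all lower in KO. Over all genes 49.4% lay below 0, and 2.8% reached that level with the lower values in KO. The share below 0 was 82.5% at 128 to 256 normalised reads per exonic kilobase and 93.6% at 256 to 512. Beside *Xirp2* the 4 of the list were *Ttn*, which encodes titin (-0.17), *Actn2*, the cross-linker of actin at the Z-disc (-0.14), and *Des*, the intermediate filament of muscle (-0.14). Leaving out 1 library moved this count between 1 and 6, with 1 when any KO library or WT replicate 1 was left out, 2 for WT replicate 2 and 6 for WT replicate 3, and after the density correction it was 2.

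*Rcan1* encodes regulator of calcineurin 1, whose shorter transcript is driven by NFAT sites and so serves as a readout of calcineurin activity. The table counts the whole gene and does not separate its 7 annotated transcripts. *Rcan1* (ENSMUSG00000022951, chr16:92391953-92466146, minus strand) stood at 305, 307 and 323 in KO and at 374, 307 and 331 in WT. KO replicate 2 and WT replicate 2 had the same value, and WT replicate 1 stood above the rest. The means were 312 ± 9.87 and 337 ± 33.9 (SD, n = 3), with a log2 fold change of -0.11 and a standard error of 0.08 (limma, adjusted p = 0.905, 95% interval of the fold 0.825 to 1.04). Without WT replicate 1 the log2 fold change was -0.03.

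Of 14 tested genes of calcineurin and NFAT signalling around *Rcan1*, 9 lay below 0 and 5 above, with a median of -0.04. The catalytic subunit *Ppp3ca* was at 603, 568 and 620 in KO and at 635, 578 and 590 in WT. *Rcan2*, the paralog of *Rcan1*, was the single gene of this list with an unadjusted p under 0.05. It stood at 1416, 1440 and 1469 in KO and at 1680, 1539 and 1527 in WT, without overlap, with a log2 fold change of -0.13 (limma, adjusted p = 0.851). The count of this list was 0 after the density correction and when KO replicate 1, KO replicate 2 or WT replicate 1 was left out, and 2 for WT replicate 3.

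*Fhl1* encodes a LIM domain protein of muscle that binds the titin spring and takes part in stretch signalling. The gene (ENSMUSG00000023092, chrX:56731787-56793346, plus strand, 10 annotated transcripts) stood at 408, 421 and 378 in KO and at 455, 399 and 453 in WT. WT replicate 2 lay under 2 of the KO hearts. The means were 402 ± 22.1 and 436 ± 31.8 (SD, n = 3), with a log2 fold change of -0.11 and a standard error of 0.07 (limma, adjusted p = 0.892, 95% interval of the fold 0.831 to 1.03). Without KO replicate 3 the log2 fold change was -0.07 and without WT replicate 2 -0.18. It turned to 0.04 under scaling to the cardiomyocyte markers.

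**Figure D2:**
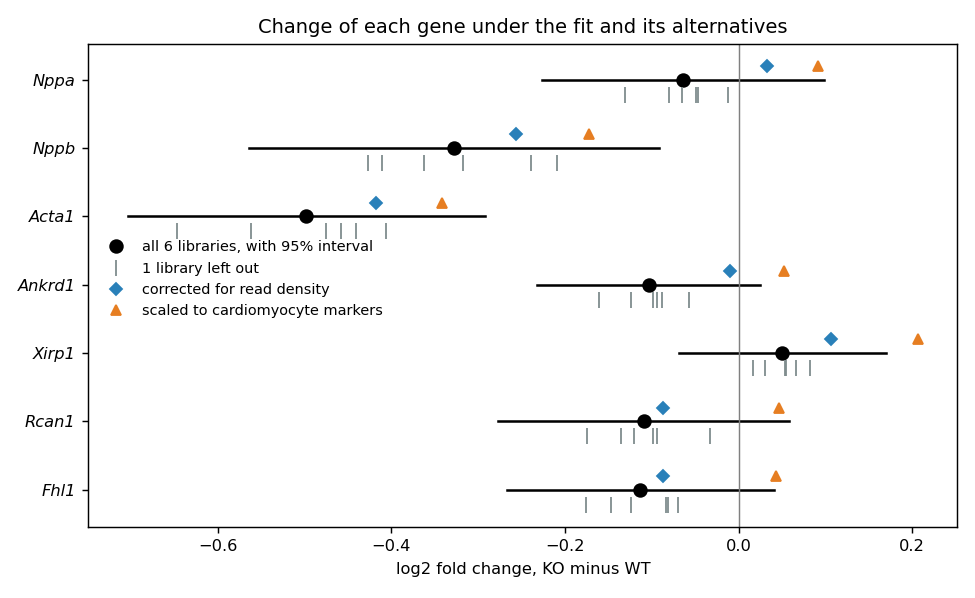
Log2 fold change, KO minus WT, of each gene over all 6 libraries with its 95% interval (black), with 1 library left out (grey ticks), after correction for read density (blue) and after scaling to the cardiomyocyte markers (orange). *Acta1* and *Nppb* stay below 0 under every setting drawn and *Xirp1* above 0, while *Nppa*, *Ankrd1*, *Rcan1* and *Fhl1* cross 0 under scaling to the cardiomyocyte markers and *Nppa* also under the density correction.

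Per kilobase of exon, a scale that takes transcript length into account, all 7 were among the more abundant transcripts of the heart. The removal of duplicate reads limits how high an abundant transcript can stand on this scale. *Nppa* was the highest with 364 normalised reads per exonic kilobase, followed by *Ankrd1* with 347, *Acta1* with 280, *Nppb* with 241, *Xirp1* with 186, *Fhl1* with 113 and *Rcan1* with 105. Among all genes tested these levels lay at the 99.5th percentile for *Nppa* and at the 90.8th for *Rcan1*. The order of *Nppa* and *Ankrd1* held in 3 of 6 libraries and that of *Ankrd1* and *Acta1* in 5, and both pairs overlapped in range. *Acta1* was above *Nppb*, and *Nppb* above *Xirp1*, in all 6 libraries, although their ranges over libraries overlapped. *Xirp1* was above *Fhl1* without overlap, and *Fhl1* was above *Rcan1* in 5 of 6 libraries with overlapping ranges.

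The spread between hearts differed from gene to gene. In WT the coefficient of variation was highest for *Acta1* (17.1%) and *Nppb* (15.1%) and lowest for *Nppa* (2.34%). In KO it was highest for *Nppb* (13.3%) and lowest for *Ankrd1* (2.50%). WT replicate 1 was the highest of the 6 libraries for 4 of the 7 genes, namely *Nppb*, *Ankrd1*, *Rcan1* and *Fhl1*. It was the highest for 20.8% of all genes tested. KO replicate 3 was the lowest for 4, namely *Nppa*, *Nppb*, *Acta1* and *Fhl1*, and the share of all genes lowest in that library was not computed. Over the 21 pairs of members, Pearson's r of log2(value + 1) across the 6 libraries ranged from -0.38 for *Ankrd1* and *Xirp1* (Spearman's rho -0.52) to 0.86 for *Acta1* and *Fhl1* (rho 0.71). *Nppa* and *Nppb*, although neighbours, had r = 0.34 (rho 0.09). These are descriptions over libraries that share the contrast between groups.

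The direction of the differences moved with transcript abundance over the whole table. Among genes with under 32 normalised reads per exonic kilobase 44.5% lay below 0, and the share was 56.2% at 64 to 128, where *Rcan1* and *Fhl1* lie, 82.5% at 128 to 256, with *Nppb* and *Xirp1*, and 93.6% at 256 to 512, with *Nppa*, *Acta1* and *Ankrd1*. The medians of these last 3 classes were -0.01, -0.06 and -0.10 on the log2 scale. Beside them, the -0.10 of *Ankrd1* was at the median of its class, the -0.06 of *Nppa* was nearer 0, and *Xirp1* was on the other side of 0. *Acta1* at -0.50, *Nppb* at -0.33 and *Rcan1* and *Fhl1*, both at -0.11, were below the medians of theirs. WT replicate 1, the shallowest library, was the highest of the 6 for 13.9% of genes in the lowest class. The share was 32.2% at 64 to 128, 61.3% at 128 to 256 and 87.1% at 256 to 512.

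After a correction for read density within each library, *Acta1* stood at -0.42 and *Nppb* at -0.26, with unadjusted limma p-values of 9.58e-04 and 0.0233. *Ankrd1* was then at -0.01, *Nppa* at 0.03, *Rcan1* and *Fhl1* both at -0.09 and *Xirp1* at 0.11, the last with an unadjusted limma p of 0.0453, so that 3 members reached an unadjusted p under 0.05, 1 of them higher in KO. Over all 13753 genes 772 reached it in that fit, 366 higher and 406 lower. The 10 cardiomyocyte markers all lay below 0 with a median of -0.16. Of the 10, 8 had an unadjusted limma p under 0.05, none of them an adjusted one, against 2.8% of all genes lower in KO at that unadjusted level. The smallest p-values belonged to *Ryr2*, the calcium release channel (log2 fold change -0.15), *Tnnc1*, cardiac troponin C (-0.17), *Mybpc3*, cardiac myosin binding protein C (-0.16), and *Ttn* (-0.17). Their sum was 98196 to 102700 in KO and 101745 to 125141 in WT. After the density correction none of these 10 had an unadjusted p under 0.05 in limma, and leaving out 1 library moved the count from 0 (KO replicate 1 or WT replicate 2 left out) through 1 (KO replicate 2 or WT replicate 1) and 5 (KO replicate 3) to 10 (WT replicate 3). Each of these markers had its highest value in WT replicate 1, the shallowest library, so levelling them also moves values with library depth. Scaled so that these markers were level in all libraries, the median of all genes moved to 0.16 and *Acta1* was at -0.34 (limma, unadjusted p = 0.0142). *Nppb* was then at -0.17 and no longer at an unadjusted p under 0.05 (limma, unadjusted p = 0.233), while *Xirp1* was at 0.21 (limma, unadjusted p = 0.0359). The part of abundance, depth and muscle content in the values of the 7 genes was not tested beyond these settings.

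**Figure D3:**
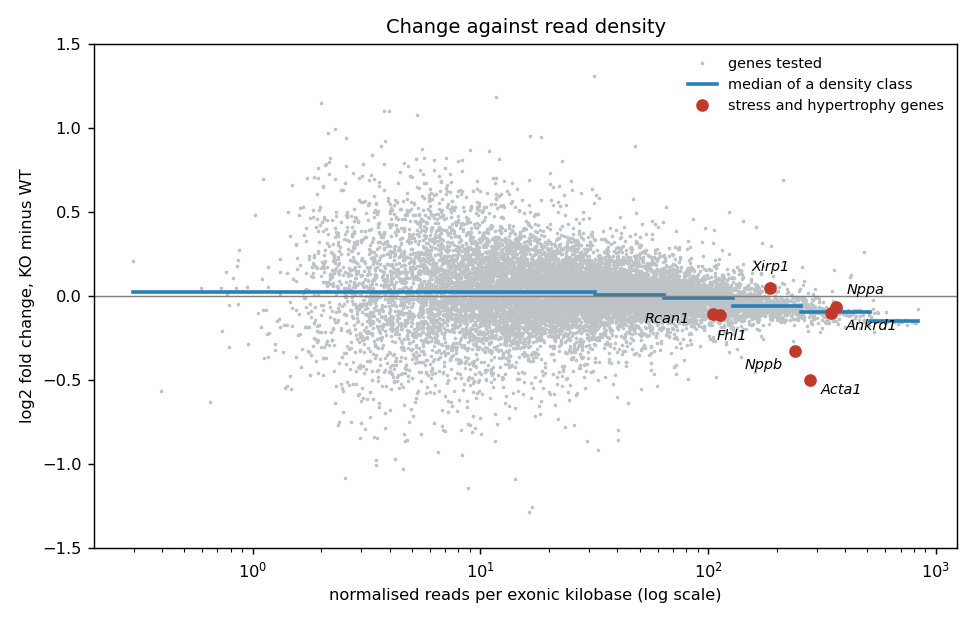
Log2 fold change, KO minus WT, of every gene tested (grey) against its normalised reads per exonic kilobase on a log axis, with the median of each density class (blue) and the 7 genes (red), leaving out 2 genes beyond 1.5 either way. The class medians go below 0 at high density, where the 7 genes lie, and *Nppb* and *Acta1* lie below their class median.

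Other transcripts that the stressed heart is known to raise did not share a direction. Of 15 on the list 9 were tested, 6 above 0 and 3 below with a median of 0.12. *Mt2*, a metallothionein, was at 28, 47 and 64 in KO and 36, 28 and 27 in WT, with a log2 fold change of 0.53 (limma, unadjusted p = 0.0430), and *Xirp2* was the other with an unadjusted p under 0.05, on the lower side. *Tnni1*, *Gdf15*, *Timp1*, *Spp1* and *Lgals3* were too low to test, at 0 to 13 in every library. Leaving out KO replicate 1 took the count at an unadjusted p under 0.05 from 2 to 6, while it was 1 without KO replicate 2 or WT replicate 3. Of 7 adult genes that fall in hypertrophy, 6 lay below 0 with a median of -0.11. Of these, *Myh6*, the calcium pump gene *Atp2a2* and *Ppargc1a*, a regulator of mitochondrial genes, had an unadjusted limma p under 0.05. Their log2 fold changes were -0.16, -0.16 and -0.12. Over all genes 49.4% lay below 0, and 2.8% had such a p with the lower values in KO. The count of such genes in the adult list was 0 after the density correction. It was 0 also when KO replicate 2 or WT replicates 1 or 2 were left out in turn, 1 for KO replicate 1, 2 for KO replicate 3 and 5 for WT replicate 3.

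The 9 listed genes of serum response factor, myocardin and the YAP-TEAD axis, which include the secreted targets *Cyr61* and *Ctgf*, gave 5 below and 4 above 0 with a median of -0.06. *Myocd*, which encodes myocardin, the muscle partner of serum response factor, was at 799, 655 and 648 in KO and 880, 773 and 776 in WT. KO replicate 1 overlapped WT, and the log2 fold change was -0.21 (limma, unadjusted p = 0.0125, adjusted p = 0.807). *Tead1*, the main TEAD factor of heart muscle, was at 1583, 1677 and 1699 in KO and 1704, 1838 and 1749 in WT, without overlap and with an unadjusted limma p of 0.103. Of 18 genes of hypertrophy signalling 8 lay below 0 and 10 above, with a median of 0.02. *Nkx2-5*, a cardiac homeobox factor, was the single one with an unadjusted p under 0.05, at 91, 76 and 89 in KO and 112, 116 and 96 in WT (limma, log2 fold change -0.34, adjusted p = 0.807). This count was 0 when WT replicate 2 was left out and 4 for WT replicate 3. The count of 1 in the serum response factor list was 0 when KO replicate 2 or KO replicate 3 was left out, and 2 for KO replicate 1 or WT replicate 2.

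The immediate early genes, which respond within minutes to stress and to handling of tissue, were tested for 9 of 10, with 6 above 0, and 2, *Jun* and *Fos*, had an unadjusted p under 0.05, both higher in KO. The count was 2 after the density correction and 2 or 3 with 1 library left out. *Jun* was at 332, 356 and 315 in KO and 284, 272 and 247 in WT, without overlap (limma, log2 fold change 0.32, unadjusted p = 7.10e-04, adjusted p = 0.518). *Fos* was at 44, 19 and 54 in KO and 10, 23 and 15 in WT, with KO replicate 2 inside the WT range (limma, unadjusted p = 0.00215, adjusted p = 0.689), with a 95% interval of the log2 fold change from 0.48 to 1.88. Markers of other cells of the heart gave no gene with an unadjusted p under 0.05 among 7 of fibroblasts (median 0.02), 4 of smooth muscle (-0.08), 5 of endothelium (0.03) and 5 of blood (-0.22). With 1 library left out these counts reached 2 for fibroblasts and 1 for endothelium (KO replicate 1), 1 for smooth muscle (KO replicate 2) and 3 for blood (WT replicate 2). The gene with the smallest p of each list was *Dcn* for fibroblasts (log2 fold change -0.10), *Acta2* for smooth muscle (-0.13), *Emcn* for endothelium (0.10) and *Hbb-bs* for blood (-0.38). Of the skeletal muscle list *Ckm*, which the heart also expresses, was the single gene tested (-0.11). The blood markers summed to between 164 and 304 in KO and between 151 and 423 in WT. Of the 4 ventricular markers all lay below 0 with a median of -0.16, and *Myl3*, the ventricular light chain, had an unadjusted limma p of 0.0380. That count of 1 became 0 after the density correction and on leaving out KO replicate 2, WT replicate 1 or WT replicate 2, and 2 for WT replicate 3. None of the genes on any of these lists passed an adjusted p of 0.05. Over all genes 5.74% reached an unadjusted limma p under 0.05 and 49.4% lay below 0.

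**Figure D4:**
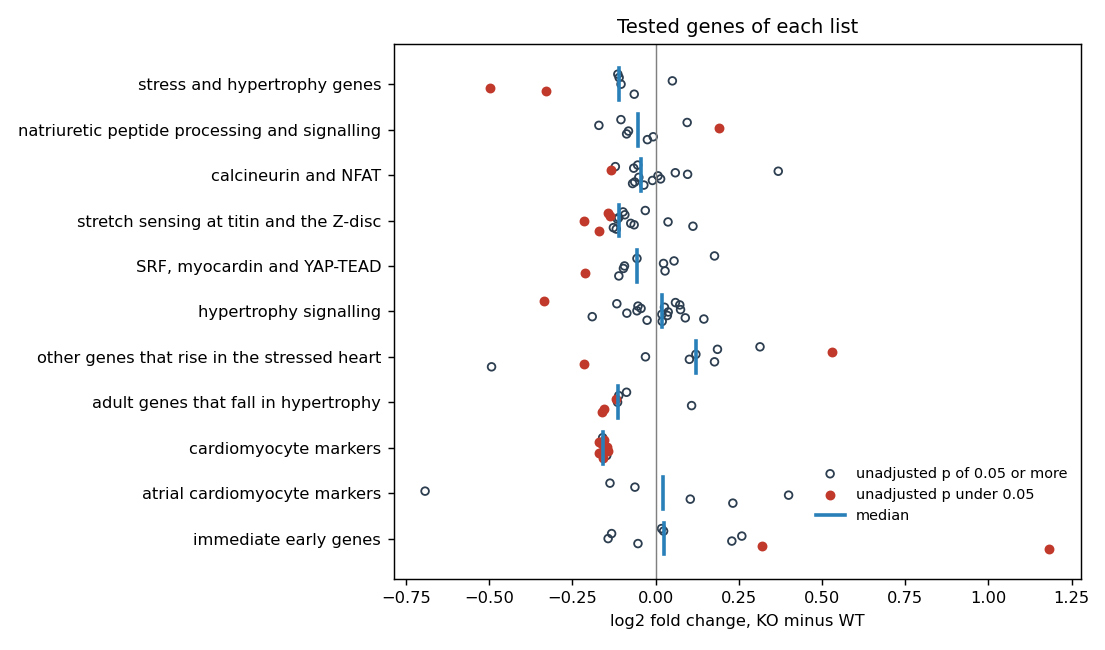
Log2 fold change, KO minus WT, of the tested genes of each list, with filled points for an unadjusted limma p under 0.05 and a blue bar for the median of the list. The cardiomyocyte markers lie in a narrow band around -0.16, and the 7 stress and hypertrophy genes around -0.11 with *Acta1* and *Nppb* as the 2 filled points to the left.

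The genes most like each member in their pattern over the 6 libraries were sought by Pearson's r of log2(value + 1) among 7062 genes with a mean of at least 100. *Nppb* was followed most closely by *Arhgef6* (r = 0.999) and *Limd1* (0.995), *Ankrd1* by *Coq9* (0.997) and *Ndufs1* (0.995), and *Rcan1* by *Stau2* (0.991) and *Rab1b* (0.990). *Nppa* was nearest to *Nacc2* (0.986) and *Snx19* (0.985), *Fhl1* to *Uvrag* (0.983) and *Sec24d* (0.979), *Acta1* to *Dctn6* (0.981) and *Atad1* (0.978), and *Xirp1* to *Thumpd1* and *Wbp4* (both 0.968). No member was among the nearest 2 of another. With 6 libraries many genes reach such values, as 130 had r above 0.95 with *Ankrd1* and 8 with *Xirp1*.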

How the data were processed

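Total RNA of mouse hearts (3 KO, 3 WT) was sequenced as strand-specific single-end 75-base reads. Per the submitters' processing notes and methods, the authors trimmed reads with Trimmomatic 0.39, aligned them to GRCm38 with STAR 2.6.1d, removed duplicates with Picard 2.21.1 together with multi-mapping, ribosomal and mitochondrial reads, and counted exonic reads per strand with featureCounts 1.6.5. Removing duplicates of single-end reads limits how many reads a transcript position can give. The values deposited by the authors are a score, the read count divided by the DESeq2 1.18.1 size factor and rounded, so the main fit used no count model. Limma-voom, which is built for counts, was run only as an alternative. Size factors, and from them read totals, were inferred from which whole numbers the rounding skips or repeats, and this was tested on simulated data. A value of 3 reads, the floor of counting, is 2.61 to 3.77 on the deposited scale.

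Log2(value + 1) of 13753 genes with a mean of at least 10 was fitted with limma 3.58.1 in R 4.3.3 (eBayes with trend, two-sided, Benjamini-Hochberg, threshold 0.05). The fit was tested on simulated counts with the same dispersion for every gene and no trend with read density. That test does not cover the density trend of these data. Ratios were compared by exact permutation tests. Exonic lengths came from GENCODE M21 and upstream sequences from RefSeq. Alternatives were pseudocount 0.1, other filters, 3 other scalings, limma-voom, no trend, a replicate block, a density correction (loess span 0.3 per library), threshold 0.01 and leaving out each library. From each list the genes with an unadjusted p under 0.05 were named, at most 4 by smallest p, or the gene with the smallest p. *Corin*, *Npr1*, *Ppp3ca*, *Tead1* and single markers were named beyond that rule after their values were seen. The members and the lists were chosen with earlier results of these data known. *Nppc*, *Sprr1a*, *Myh1* and *Myh4* were not analysed here.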

Additional observations from a re-analysis of the deposited data

How the results depend on the processing

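*Nppb*, *Acta1* and *Xirp1* kept their direction under the 17 alternatives run for each. *Nppa* reversed to 0.033 after the density correction, and scaling to the cardiomyocyte markers, which moved the median of all genes to 0.16, reversed *Nppa* to 0.092, *Ankrd1* to 0.052, *Rcan1* to 0.047 and *Fhl1* to 0.043, the cause of which is that shift of scale. The adjusted limma p of *Acta1* ran from 0.00427 to 0.896 and that of *Nppb* from 0.174 to 0.999. With 1 library left out the log2 fold changes ranged from -0.13 to -0.01 for *Nppa*, -0.43 to -0.21 for *Nppb*, -0.65 to -0.41 for *Acta1*, -0.16 to -0.06 for *Ankrd1*, 0.02 to 0.08 for *Xirp1*, -0.17 to -0.03 for *Rcan1* and -0.18 to -0.07 for *Fhl1*. The members past an adjusted p of 0.05 ranged from 0 to 1 in those fits, and those at an unadjusted p under 0.05 from 1 to 3, with 1 when KO replicate 3 or WT replicate 1 was left out and also with no mean-variance trend. The count hides an exchange of members, since the 2 under the marker scaling were *Acta1* and *Xirp1*, the latter higher in KO, and the 3 after the density correction were *Acta1*, *Nppb* and *Xirp1*. Beside *Acta1* and *Nppb*, *Ankrd1* at -0.16 (limma, unadjusted p = 0.0124) was counted when WT replicate 3 was left out, and *Fhl1* at -0.18 (limma, unadjusted p = 0.0453) for WT replicate 2, both lower in KO. Over all genes the 4 adjusted calls became 2 with at least 10 in every sample, 1 without the trend, 2 at a threshold of 0.01 and 2 to 32 with 1 library left out, namely 32 for KO replicate 1, 7 for WT replicate 3 and 2 for KO replicate 2 or WT replicate 1. The 790 genes at an unadjusted p under 0.05 became 1365 under the marker scaling and 507 (without KO replicate 3) to 1182 with 1 library left out. The split of higher to lower was 405 to 385, 555 to 270 under total scaling and 1334 to 31 under the marker scaling. Except where said, the cause of a move was not tested.

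Replicate numbers gave no pairing of the libraries, since same-numbered libraries correlated at 0.0476, -0.0680 and -0.0278 after the group means were removed. With a replicate block *Acta1* stayed at -0.50 with an adjusted p of 0.0769 and *Nppb* at -0.33 with 0.556, the count of adjusted calls over all genes stayed at 4, and no member's call changed. The median standard error of the log2 fold change over all genes was 0.12.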
